A study of Homo sapiens with 6 samples.

Results

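The genes described here are 38 genes of glycolysis and of the hypoxia response, chosen by symbol from a list of glycolytic enzymes, glucose and lactate transporters, hypoxia-inducible factor (HIF) subunits, HIF hydroxylases and HIF targets. All 38 were found among the 37871 genes of the count table. The RNA came from T24, an established carcinoma line of the human bladder, grown in high-glucose DMEM. The 3 vehicle libraries were compared with 3 libraries of cells given lipopolysaccharide (LPS), a bacterial cell wall component, together with nigericin, an ionophore whose release of cell potassium triggers the NLRP3 inflammasome. Both groups are otherwise the same line and medium, no group received either agent alone, and no dose, time or oxygen level is stated for them. Separate cultures are not named in the labels, and p-values then measure only the spread between these libraries, which may be technical.

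Glycolysis splits glucose into pyruvate in a chain of cytosolic enzymes, and lactate dehydrogenase then converts pyruvate to lactate, which leaves the cell through monocarboxylate transporters. HIF is a dimer of an alpha subunit (HIF1A or EPAS1) and the beta subunit ARNT. In oxygen-replete cells the EGLN prolyl hydroxylases mark the alpha subunit for destruction by the VHL ubiquitin ligase, and in hypoxia the dimer accumulates and raises transcription of many glycolytic genes, of angiogenic factors and of collagen hydroxylases. Many carcinoma lines hold high glycolytic transcript levels in oxygen as well. The values below are transcript levels, and none measures HIF protein, glucose use or lactate output.

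Libraries held 66180407 to 89152224 counts, and 19170 genes passed the filter on low counts. Levels are scaled counts (CPM, scaled to 1e+06 per library with edgeR's TMM factors), errors are SD over n = 3 libraries per group, and p-values were adjusted by Benjamini-Hochberg over the 19170 genes of edgeR's quasi-likelihood test at a threshold of 0.05. Epithelial keratin genes marked the line (summed level of 8 epithelial markers 6622 to 9659 CPM in vehicle and 3614 to 4648 CPM after treatment), with CDH1 and KRT5 at or near 0 in all libraries. Of 6 urothelial markers, GATA3 and PPARG were above 1 CPM and the uroplakin genes were near 0. Of the 4 leukocyte markers in the table, CD68 was the one above 1 CPM (summed level 4.87 to 12 CPM in vehicle and 2.77 to 3.69 CPM after treatment), and PTPRC was at or near 0.

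After LPS plus nigericin, transcripts of SLC2A3, SLC16A1, P4HA1, HIF1A and ADM rose 2.84-fold to 5.95-fold and those of EPAS1 and KDM3A 2.01-fold and 2.68-fold, while GAPDH, PKM, GPI, PFKL and SLC16A3 fell 1.48-fold to 1.70-fold. Tested against a 2-fold change (edgeR's glmTreat), the first 5 passed, and EPAS1 and KDM3A did not (adjusted p = 0.644 and 0.134). Of the 38 genes, 37 were tested, and CA9 had too few counts. Of the 37, 14 rose, 9 fell and 14 did not pass the threshold, so that 62.2% were called, against 55.3% of all tested genes. Scaled by library totals in place of TMM factors, 11 rose and 13 fell. By direction, 28.9% of all tested genes rose and 26.4% fell. The median log2 fold change of the 37 was 0.09, against 0.00 over all tested genes. The treated values lay wholly above vehicle for 16 of the 37 and wholly below for 13, against 35.0% and 32.0% of all tested genes (67.0% in either direction). The share of calls among these genes was thus close to that of the whole table, and the account below turns on which members moved and by how much.

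**Figure D1:**
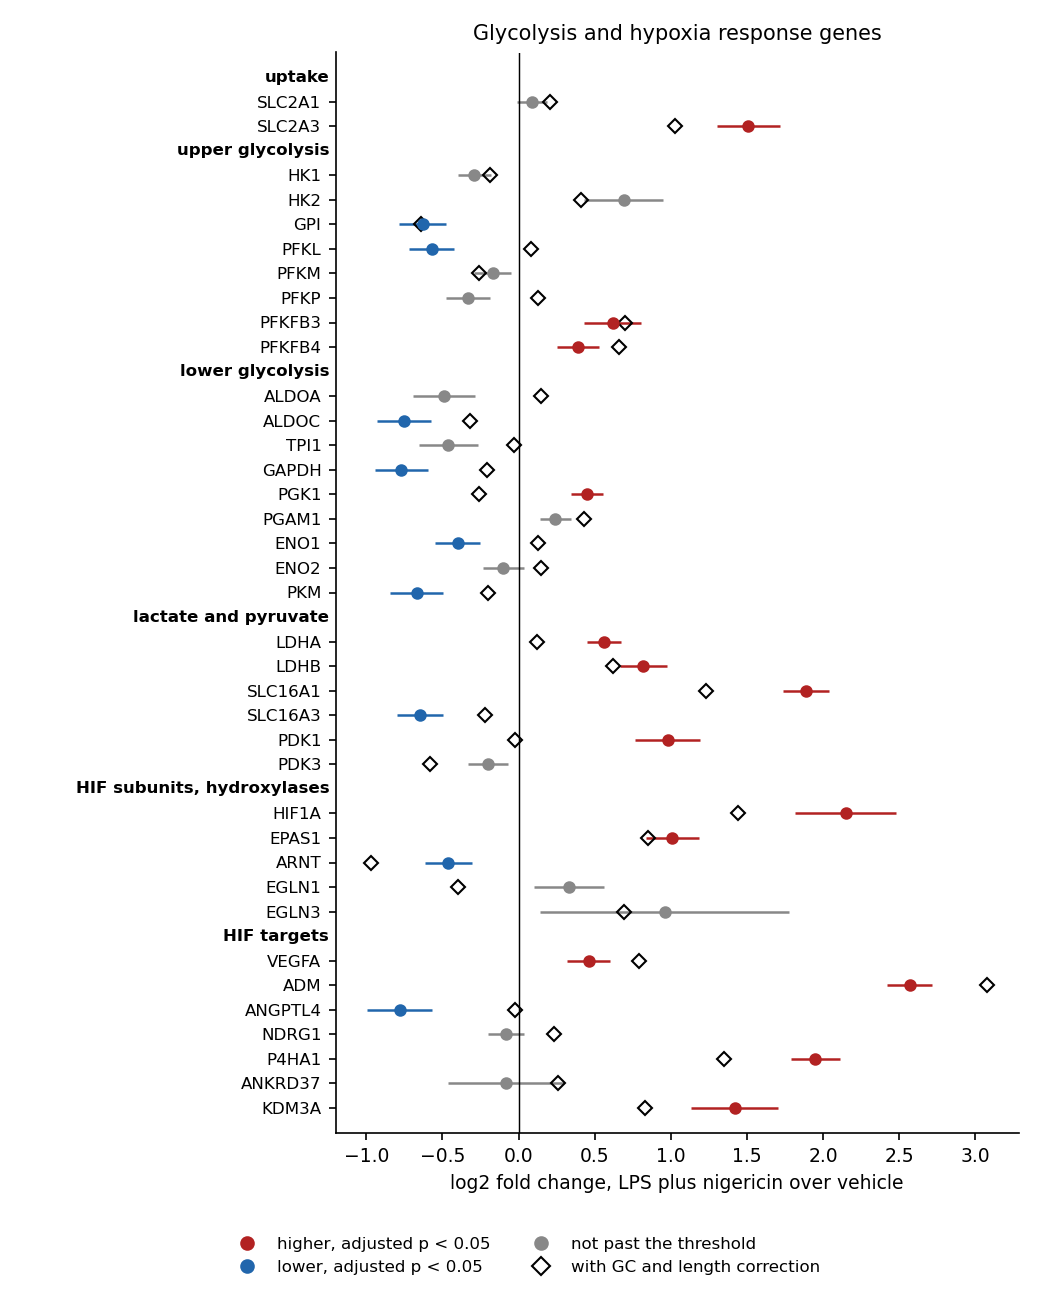
Log2 fold change of LPS plus nigericin over vehicle (x axis) for each of the 37 tested genes, grouped by role, with bars for the standard error (n = 3 libraries per group). Filled points mark genes higher, lower or not past the edgeR threshold, and open diamonds the value with a correction for GC content and transcript length. ADM at 2.57 and HIF1A at 2.15 are farthest to the right, and no fall goes beyond -0.78.

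Transcript composition moved with the groups and bears on these values. The 14 genes that rose had a median GC content of 45.3% (39.2% to 58.5%), and the 9 that fell a median of 58.8% (47.1% to 63.5%), against a median of 49.8% over tested protein-coding genes. Of all tested protein-coding genes in the fourth GC quintile (53.1% to 59.3%), 15.1% rose and 44.9% fell, and 16 of the 38 genes lie there, 4 higher and 5 lower. In the second quintile 51.2% of genes rose and 8.48% fell, and of the 9 genes of the list there 6 rose and 0 fell. With a per-library correction for GC content and length, 13 of the 37 were called higher and 4 called lower, where 23.7% and 26.9% of its 18620 genes were. Of the 14 rises 11 were also called higher with the correction, and of the 9 falls 2 were also called lower, GPI and ARNT. A technical trend and one brought by the treatment cannot be told apart here. Corrected values of the 37 genes are given below wherever they change a call, turn a direction or move the log2 value by over 1.5 times.

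**Figure D2:**
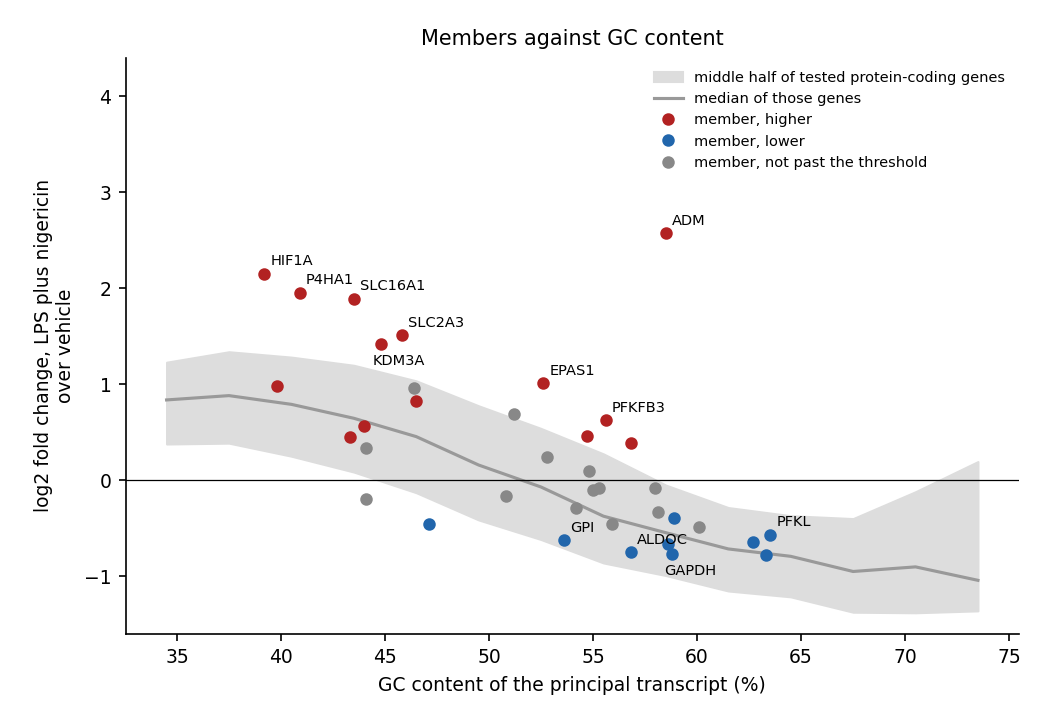
Log2 fold change of LPS plus nigericin over vehicle (y axis) against GC content of the principal transcript in percent (x axis), for the 37 tested genes (points) and for all tested protein-coding genes in bins of GC content (line for the median, band for the middle 50% of genes). ADM, with 58.5% GC, stands at 2.57 where the median gene was lower after treatment, and GAPDH, PKM and PFKL lie within the band.

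A form of the DNA core bound by HIF was searched in the 250 bases before each annotated start, to compare members that share it. The letters were ACGTG on either strand, so that CACGT also counts, and other forms of the core were not searched. CACGTG holds both and is also the E-box bound by other factors. RefSeq promoters (GRCh38.p14) were matched for 34 of the 38 genes, some with several starts. A match in at least 1 window was present in 20 of the 34 (58.8%), against 21.7% of all 27305 genes in the promoter table and 27.8% of the 12259 tested genes in it. It was present in 5 of the 11 matched genes that rose, in 5 of the 9 that fell, in 9 of the 13 that did not pass and in the untested CA9. The list was chosen in part as HIF targets, and genes with several starts had more windows. These shares are therefore no test of enrichment. The site nearest to a start is shown for those 10 called genes, 5′ to 3′ on the gene's strand, rises first and then falls. Capitals mark the letters of that site only, and a further match in the flank, as in PDK1, is in lower case. The same letters thus stand before genes called higher and genes called lower. With the GC and length correction, P4HA1 and PFKFB3 were still called higher and GPI lower, and the others shown were not called.
P4HA1 (chr10:73096936-73096964, minus strand): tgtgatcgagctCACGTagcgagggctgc
PDK1 (chr2:172556070-172556098, plus strand): cgccacgtccctCACGTaccactcggcag
PFKFB3 (chr10:6202812-6202841, plus strand): caccctcctcccCACGTGgaagggggctgg
LDHA (chr11:18394478-18394506, plus strand): cgtgggttcccgCACGTccgccggccccc
PGK1 (chrX:78104053-78104081, plus strand): aaacggaagccgCACGTctcactagtacc
ANGPTL4 (chr19:8363909-8363937, plus strand): ggaaagaagagtCACGTctcccacggttc
GAPDH (chr12:6535171-6535200, plus strand): gctctgcggggtCACGTGtcgcagaggagc
ALDOC (chr17:28576907-28576935, minus strand): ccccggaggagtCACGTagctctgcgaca
SLC16A3 (chr17:82228975-82229003, plus strand): cgtgcgcgggggACGTGccgcgccagcga
GPI (chr19:34364818-34364846, plus strand): acactgcctgtaACGTGgaaggtgttcga
The windows of ADM, HIF1A, EPAS1, KDM3A, LDHB and PFKFB4, which rose, and of PFKL, ENO1, PKM and ARNT, which fell, held no match, which says only that these letters are not in those windows. A match is a description of the sequence and not a measured binding site.

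Both HIF alpha subunit genes rose and the beta subunit gene fell. HIF1A (ENSG00000100644, chromosome 14, 61695513 to 61748259, plus strand, GRCh38), which encodes the HIF-1 alpha subunit, was at 54.5, 29.2 and 78.8 CPM in vehicle libraries 1 to 3 and at 282, 200 and 237 CPM in treated libraries 1 to 3. All treated values were far above the highest vehicle value, and vehicle library 2 was the lowest of all. HIF1A rose 4.43-fold (a log2 fold change of 2.15 with SE 0.331, edgeR adjusted p = 0.00122), and by 1.44 on that scale under the GC and length correction. EPAS1, which encodes the HIF-2 alpha subunit, was at 86.5, 62.1 and 99.3 CPM in vehicle and 181, 155 and 163 CPM after treatment, with no overlap between groups. It rose 2.01-fold (a log2 fold change of 1.01 with SE 0.176, edgeR adjusted p = 0.00210).

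ARNT, the shared beta subunit, was at 16.6, 17.5 and 18.9 CPM in vehicle and 14.2, 10.8 and 13.5 CPM after treatment. Every treated library was below every vehicle library, and ARNT fell by 0.46 on the log2 scale (SE 0.153, edgeR adjusted p = 0.0334), or by 0.97 with the correction. The ARNT call was lost on leaving out vehicle library 1 or 3 or any 1 treated library (edgeR adjusted p = 0.0520 or above). The hydroxylase gene EGLN1, whose product is the main oxygen sensor of the pathway, did not pass, at 11.8 ± 3.45 CPM in vehicle and 14.9 ± 1.62 CPM after treatment (a log2 fold change of 0.33, edgeR adjusted p = 0.252; -0.40 with the correction, edgeR adjusted p = 0.0449). EGLN3, a hydroxylase gene that is itself a HIF target, was at 3 to 44 counts per vehicle library and 15 to 68 per treated library, and its groups overlapped (edgeR adjusted p = 0.346).

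Of the 8 HIF target genes, 4 rose, 1 fell, 2 did not pass and 1 could not be tested. Over all tested genes the shares were 28.9% higher and 26.4% lower. ADM (ENSG00000148926, chromosome 11, 10304680 to 10307397, plus strand), which encodes the vasodilator peptide adrenomedullin, was at 28.0, 20.5 and 27.3 CPM in vehicle and 142, 155 and 154 CPM after treatment. The groups were widely apart and each was tight, and ADM rose 5.95-fold, the largest rise of the 37 (a log2 fold change of 2.57 with SE 0.148, edgeR adjusted p = 3.21e-05). P4HA1 (chromosome 10, 73007217 to 73096974, minus strand), a subunit of the prolyl hydroxylase that modifies collagen, was at 13.9, 10.9 and 15.6 CPM in vehicle and 56.3, 49.3 and 50.6 CPM after treatment. It rose 3.86-fold (a log2 fold change of 1.95 with SE 0.162, edgeR adjusted p = 1.04e-04), and by 1.35 with the correction.

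KDM3A, a histone H3 lysine demethylase gene, rose from 5.23, 3.28 and 7.47 CPM to 15.7, 14.3 and 12.8 CPM (a log2 fold change of 1.42 with SE 0.284, edgeR adjusted p = 0.00386), and by 0.83 with the correction. VEGFA, the angiogenic growth factor gene, was at 66.7, 55.0 and 77.6 CPM in vehicle and 95.7, 90.3 and 87.9 CPM after treatment. All treated values were higher, but the difference was modest (a log2 fold change of 0.46 with SE 0.142, edgeR adjusted p = 0.0248; 0.79 with the correction), and the call was lost on leaving out vehicle library 1 or any 1 treated library (edgeR adjusted p = 0.0649 or above) or scaling by library totals (0.39, edgeR adjusted p = 0.107). ANGPTL4, an inhibitor of lipoprotein lipase, went the other way. It was at 39.3, 51.0 and 29.6 CPM in vehicle and 19.4, 26.3 and 24.2 CPM after treatment, and fell by 0.78 on the log2 scale (SE 0.215, edgeR adjusted p = 0.0157), a call lost without treated library 1 (edgeR adjusted p = 0.0636) and with the correction (-0.02, edgeR adjusted p = 0.877).

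The remaining targets stayed near their vehicle level or near 0. NDRG1, a stress-responsive gene that hypoxia induces in many cell types, was at 25.1 ± 1.03 CPM in vehicle and 23.7 ± 1.13 CPM after treatment (a log2 fold change of -0.08 with SE 0.119, edgeR adjusted p = 0.586; 0.23 with the correction). ANKRD37, which encodes an ankyrin repeat protein, was at 1.16 ± 0.372 and 1.10 ± 0.453 CPM (a log2 fold change of -0.08 with SE 0.380; 0.26 with the correction). CA9, carbonic anhydrase 9, a cell surface enzyme widely used as a hypoxia marker, had 1, 2 and 0 counts in the vehicle libraries and 4, 13 and 11 in the treated libraries, and its exons overlap those of ARHGEF39. These counts are too low for a fold change.

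**Figure D3:**
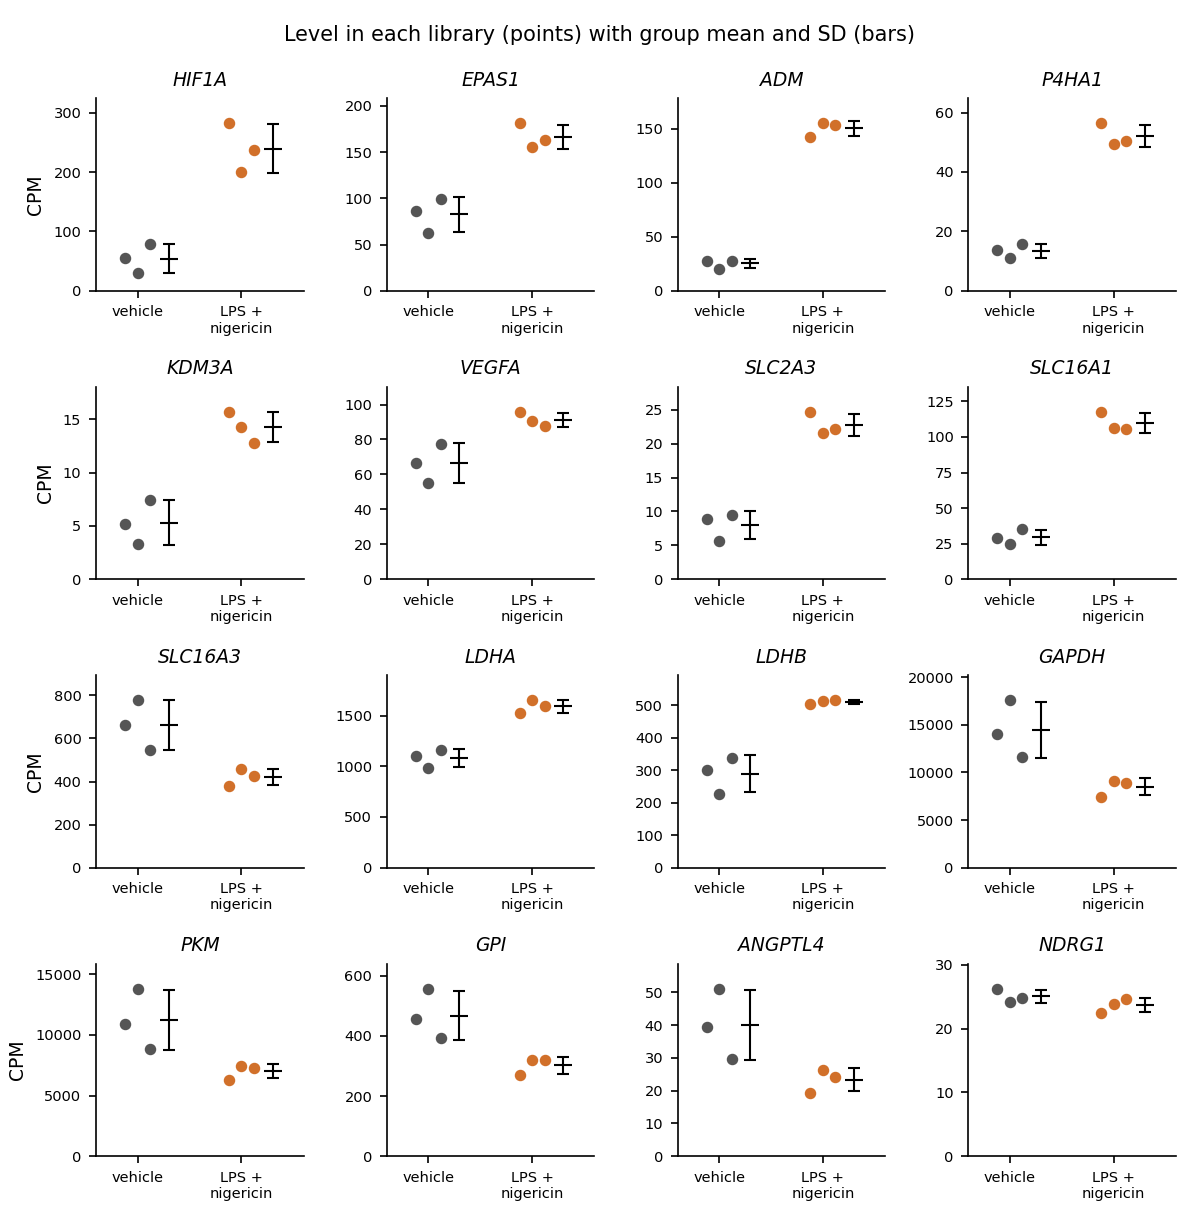
CPM (y axis, linear from 0) of 16 of the genes in each of the 6 libraries (points, libraries 1 to 3 of a group from left to right), with the group mean and SD beside them (horizontal mark and bar). HIF1A, ADM, P4HA1 and SLC16A1 separate the groups widely upward, GAPDH, PKM and SLC16A3 downward with a wide vehicle spread, and NDRG1 overlaps.

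Glucose uptake genes differed between the paralogs. SLC2A1, which encodes GLUT1, the main basal glucose transporter of many carcinoma cells, was at 291, 275 and 286 CPM in vehicle and 290, 313 and 300 CPM after treatment. The groups overlapped and it did not pass (a log2 fold change of 0.09 with SE 0.0972, edgeR adjusted p = 0.484; 0.21 with the correction, edgeR adjusted p = 0.0291). SLC2A3, which encodes the high-affinity transporter GLUT3, rose from 8.87, 5.65 and 9.49 CPM to 24.7, 21.5 and 22.1 CPM (2.84-fold, a log2 fold change of 1.51 with SE 0.209, edgeR adjusted p = 7.67e-04).

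Among the 8 genes of upper glycolysis 2 rose, 2 fell and 4 did not pass. Of all tested genes, 28.9% rose and 26.4% fell. Both hexokinase genes, whose products trap glucose as its phosphate, lay close to the threshold on opposite sides of 0. HK1 was at 269, 291 and 241 CPM in vehicle and 211, 218 and 225 CPM after treatment (a log2 fold change of -0.29 with SE 0.11, edgeR adjusted p = 0.0514; -0.19 with the correction). It passed without vehicle library 3 and with RLE factors, library totals, limma-voom or the filter of 1 CPM. HK2, the inducible hexokinase gene, was at 10.1, 5.87 and 12.3 CPM and 17.0, 13.7 and 15 CPM (a log2 fold change of 0.69 with SE 0.260, edgeR adjusted p = 0.0522; 0.41 with the correction). It passed without vehicle library 2 or 3 and with DESeq2, limma-voom, the filter of 1 CPM or the replicate block. In both genes the groups did not overlap.

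GPI, which converts glucose 6-phosphate to fructose 6-phosphate, was at 455, 556 and 392 CPM in vehicle and 269, 318 and 319 CPM after treatment. It fell by 0.63 on the log2 scale (SE 0.152, edgeR adjusted p = 0.00882) and by 0.64 with the correction. PFKL, the liver-type subunit of phosphofructokinase, the committed step of the pathway, fell from 191 ± 31.4 to 129 ± 12.6 CPM (a log2 fold change of -0.57, edgeR adjusted p = 0.0124), a call lost without treated library 1 (edgeR adjusted p = 0.0523) and with the correction, where it was at 0.08. The muscle-type and platelet-type subunit genes PFKM and PFKP did not pass, at -0.17 and -0.33 (edgeR adjusted p = 0.250 and 0.0855; -0.26 and 0.13 with the correction).

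Both genes for the bifunctional enzymes that set the level of fructose 2,6-bisphosphate, an activator of phosphofructokinase, rose. PFKFB3 was at 13.4, 9.26 and 14.8 CPM in vehicle and 19.6, 19.0 and 19.2 CPM after treatment (a log2 fold change of 0.62 with SE 0.187, edgeR adjusted p = 0.0222). PFKFB4 was at 11.6, 11.9 and 10.2 CPM and 14.6, 14.1 and 15.6 CPM (a log2 fold change of 0.39 with SE 0.137, edgeR adjusted p = 0.0393; 0.66 with the correction). Every treated value was above every vehicle value in both genes, yet the PFKFB3 call was lost on leaving out vehicle library 1 or any 1 treated library, and that of PFKFB4 without vehicle library 1 or 3 or any 1 treated library (edgeR adjusted p = 0.0539 or above). Both calls were also lost with library totals (edgeR adjusted p = 0.0856 for PFKFB3 and 0.0754 for PFKFB4), and that of PFKFB4 with RLE factors, DESeq2, no count filter or the replicate block (adjusted p = 0.0501 to 0.0818). With the correction both were called, at 0.70 and 0.66.

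In lower glycolysis, from aldolase to pyruvate kinase, 4 of 9 genes fell, 1 rose and 4 did not pass. Of all tested genes, 26.4% fell and 28.9% rose. With the correction the median log2 fold change of the 9 went from -0.46 to -0.03, and 0 of these calls were kept. GAPDH, glyceraldehyde 3-phosphate dehydrogenase, often used as a reference gene, was at 14074, 17548 and 11649 CPM in vehicle and 7449, 9142 and 8861 CPM after treatment. Every treated library was below every vehicle library, and GAPDH fell by 0.77 on the log2 scale (1.70-fold, SE 0.173, edgeR adjusted p = 0.00672). PKM, pyruvate kinase, was at 10939, 13798 and 8870 CPM and 6327, 7447 and 7293 CPM, and fell by 0.67 (SE 0.175, edgeR adjusted p = 0.0123). In both genes vehicle library 2 was the highest of all, and with the correction the values were -0.21 and -0.20 and not called (edgeR adjusted p = 0.0988 and 0.165). The PKM call was also lost without treated library 1 (edgeR adjusted p = 0.0578).

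ALDOC, the brain-type aldolase gene, fell from 20.2 ± 3.65 to 12 ± 1.41 CPM (a log2 fold change of -0.75, edgeR adjusted p = 0.00783; -0.32 with the correction, edgeR adjusted p = 0.0751). ENO1, the main enolase gene, fell from 5496 ± 827 to 4163 ± 398 CPM (a log2 fold change of -0.40, edgeR adjusted p = 0.0478), a call lost without any 1 of the libraries other than vehicle library 3 (edgeR adjusted p = 0.0711 or above), with no count filter (edgeR adjusted p = 0.0516) and with the correction (0.13). PGK1, phosphoglycerate kinase, was the 1 gene of this stretch that rose, from 497, 468 and 528 CPM to 660, 693 and 683 CPM (a log2 fold change of 0.45 with SE 0.103, edgeR adjusted p = 0.00716), and it was at -0.26 with the correction (edgeR adjusted p = 0.0656). ALDOA, TPI1, PGAM1 and ENO2 did not pass, with log2 fold changes of -0.49, -0.46, 0.24 and -0.10. With the correction they were at 0.15, -0.03, 0.43 and 0.15, and PGAM1 passed.

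The pathway's share of all counts was lower after treatment. The 17 genes of upper and lower glycolysis took 3.81%, 4.26% and 3.39% of the counts in vehicle libraries 1 to 3 and 2.24%, 2.58% and 2.56% in the treated libraries. Without GAPDH the shares were 2.10% to 2.63% and 1.49% to 1.70%. The ranges did not overlap in either case. These shares are uncorrected, and the falls of GAPDH, PKM and ENO1, the 3 with the most counts of the 17, were not called with the correction.

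At the end of the pathway 4 of 6 genes rose and 1 fell, against 28.9% and 26.4% of all tested genes. The median log2 fold change of the 6 was 0.69, or 0.05 with the correction, where 2 of the 4 rises were still called. LDHA, the lactate dehydrogenase subunit that favours lactate formation, was at 1097, 982 and 1159 CPM in vehicle and 1527, 1649 and 1594 CPM after treatment. It rose 1.47-fold (a log2 fold change of 0.56 with SE 0.112, edgeR adjusted p = 0.00392), and was not called with the correction (0.12, edgeR adjusted p = 0.251). LDHB, the subunit of heart-type lactate dehydrogenase, was at 301, 227 and 339 CPM and 503, 515 and 515 CPM, with treated libraries within a narrow range. It rose 1.77-fold (a log2 fold change of 0.82 with SE 0.153, edgeR adjusted p = 0.00289).

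The lactate transporter genes moved in opposite directions. SLC16A1 (ENSG00000155380, chromosome 1, 112911847 to 112957013, minus strand), which encodes MCT1, was at 28.7, 24.8 and 35.3 CPM in vehicle and 118, 106 and 105 CPM after treatment. It rose 3.70-fold (a log2 fold change of 1.89 with SE 0.152, edgeR adjusted p = 9.26e-05), and by 1.23 with the correction. SLC16A3 (chromosome 17, 82228397 to 82261129, plus strand), which encodes MCT4, the exporter of glycolytic cells and a known HIF target, was at 662, 776 and 547 CPM and 381, 458 and 424 CPM. It fell by 0.65 on the log2 scale (SE 0.151, edgeR adjusted p = 0.00742), and was at -0.22 with the correction (edgeR adjusted p = 0.0744).

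Of the genes for kinases that shut off pyruvate dehydrogenase and so keep pyruvate out of the mitochondrial cycle, PDK1 rose from 5.12, 3.11 and 4.74 CPM to 8.76, 8.22 and 8.56 CPM (a log2 fold change of 0.98 with SE 0.215, edgeR adjusted p = 0.00594), and was at -0.02 with the correction. PDK3 was at 12.4 ± 0.211 and 10.8 ± 0.349 CPM and did not pass (a log2 fold change of -0.20, edgeR adjusted p = 0.227; -0.58 with the correction, edgeR adjusted p = 0.00534).

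To compare paralogs on 1 scale, each gene's counts were divided by its total exon length, and the share of each family's sum was taken within each library, a measure that library scaling does not move. Of 13 shares in 11 families, 9 did not overlap between groups, where the levels of 67.0% of all tested genes did not overlap either. For all 9 the two-sided exact permutation p was 0.1, the smallest that 3 against 3 libraries allow, or 0.144 adjusted over the 13, so no share could pass a threshold of 0.05 in this design. In the lactate transporters SLC16A1 held 6.84%, 5.13% and 9.86% of the family in vehicle and 34.3%, 28.2% and 29.6% after treatment, and SLC16A3 remained the main transcript in all 6 libraries. HIF1A held 46.7% ± 6.51 (SD, n = 3) of the HIF alpha transcripts in vehicle and 67.0% ± 2.12 after treatment, and was above EPAS1 in every treated library. The order of the shifts depends on the length used. They were 23.4 percentage points for SLC16A1 and 20.3 for HIF1A with total exon length, 17.5 and 20.4 with principal transcript length, and 16.3 and 20.6 with unscaled counts, where PDK1 shifted by 18.4.

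PDK1 went from 10.3% ± 2.44 to 20.7% ± 0.922 of the PDK1 and PDK3 sum, and LDHA from 64.4% ± 2.77 to 59.9% ± 0.649 of the lactate dehydrogenase sum. The PDK1 and PDK3 sum leaves out PDK2, which was at 31.8 CPM in vehicle, above both, and at 12.8 CPM after treatment. SLC2A1 fell from 97.9% ± 0.493 to 94.5% ± 0.569 of the glucose transporter sum and HK1 from 96.4% ± 1.49 to 93.2% ± 0.853 of the hexokinase sum, so the paralog with most transcripts stayed the same in both. PFKP was the main phosphofructokinase transcript throughout, at 77.7% ± 0.354 and 79.2% ± 0.349. The shares of PFKM, PFKFB3, ALDOA and EGLN1 overlapped between groups. With shares from corrected values, the differences were 13.2 percentage points for SLC16A1 (23.4 without), 10.1 for HIF1A (20.3 without), 4.77 for PDK1 (10.4 without, and 5.12 with principal transcript length) and -8.15 for LDHA (-4.52 without). They were -1.89 for SLC2A1 (-3.39 without), -1.88 for HK1 (-3.16 without, and -1.98 with principal transcript length), -0.197 for PFKL (-2.23 without) and -1.58 for PFKM (0.782 without). Leaving out vehicle library 2, the LDHA difference was -2.98.

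**Figure D4:**
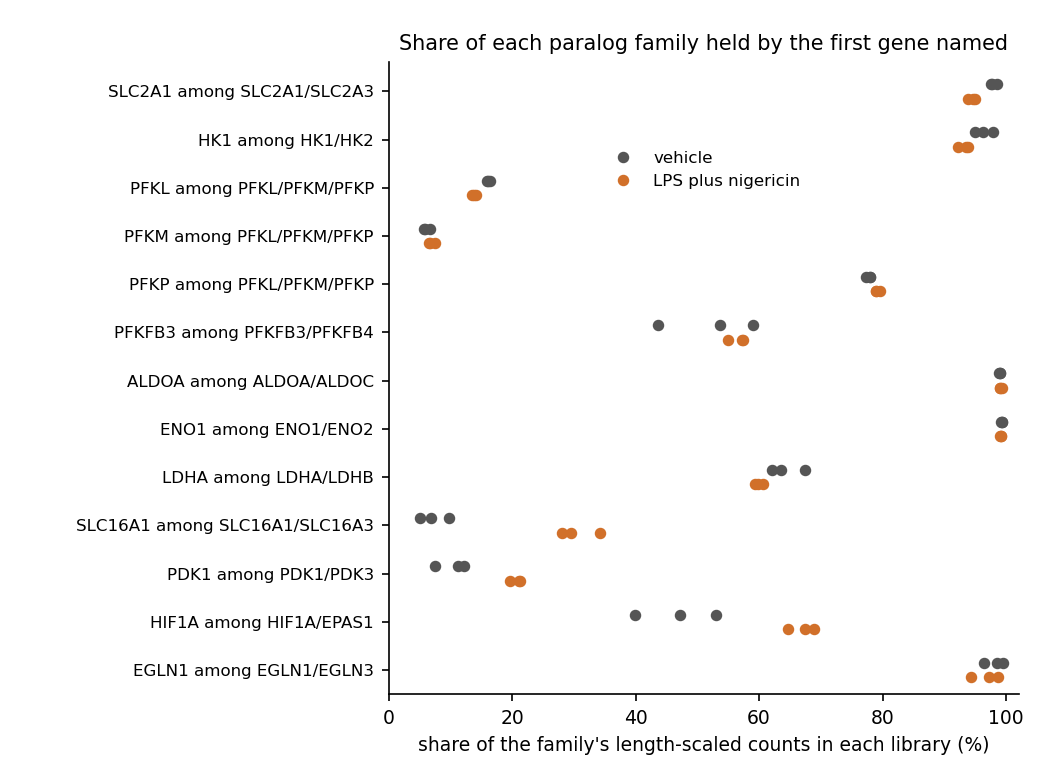
Share of a paralog family's length-scaled counts held by the first gene named (x axis, percent, with each of the 3 phosphofructokinase genes shown), in each of the 3 vehicle and 3 treated libraries (points). The SLC16A1 share lies at 5.13% to 9.86% in vehicle and 28.2% to 34.3% after treatment. SLC2A1, HK1, ALDOA, ENO1 and EGLN1 hold at least 92.3% in all libraries. The EGLN1 share is of EGLN1 and EGLN3 only and leaves out EGLN2, whose level was above that of EGLN1 in both groups.

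A wider set of 16 HIF regulators was read for context. Of its 15 tested genes, 5 rose, 5 fell and 5 did not pass, a called share of 66.7% against 55.3% of all tested genes. Leaving out vehicle library 1 gave 3 rises and 3 falls. The genes for the coactivators that HIF recruits rose, EP300 from 21.8 ± 6.70 to 108 ± 31.1 CPM (a log2 fold change of 2.31) and CREBBP from 32.1 ± 4.98 to 140 ± 27.7 CPM (2.12), as did CITED2, which encodes a competitor of HIF for these coactivators, from 19.3 ± 3.09 to 47.6 ± 2.51 CPM (1.30). MXI1, a MYC antagonist gene, rose by 1.00 on the log2 scale, and CUL2, the cullin of the VHL ligase, by 0.60 (-0.20 with the correction). The CUL2 call was lost with library totals and on leaving out vehicle library 1 or any 1 treated library, and the MXI1 call without vehicle library 1 (edgeR adjusted p = 0.0502 or above).

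RBX1, the RING subunit of the same ligase and of other cullin ligases, fell from 57.6, 49.1 and 56.6 CPM to 9.70, 9.24 and 11 CPM. The groups were far apart, and the fall was 5.45-fold (a log2 fold change of -2.45 with SE 0.139, edgeR adjusted p = 3.12e-05; -2.49 with the correction). The elongin B gene ELOB, of the VHL ligase, fell by 0.90 (log2; -0.26 after correction, edgeR adjusted p = 0.0872), while VHL itself, the subunit that recognises hydroxylated HIF, did not pass (a log2 fold change of -0.11, edgeR adjusted p = 0.685; -0.47 with the correction, edgeR adjusted p = 0.0181). EGLN2, the third HIF prolyl hydroxylase gene, fell by 0.60 (0.06 after correction), USP20, a deubiquitinase gene, by 0.72 (-0.36 after correction), and SIAH2, a ubiquitin ligase gene that acts on the hydroxylases, by 0.52 (-0.15 after correction). The EGLN2 call was lost on leaving out vehicle library 1 or treated library 1 or 2, and that of SIAH2 on leaving out vehicle library 1 or 2, or treated library 1 or 3 (edgeR adjusted p = 0.0718 or above). Without treated library 1, 3 of these regulators fell.

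Of 31 tested genes on a list of 34 other HIF targets, 11 rose, 9 fell and 11 did not pass, a called share of 64.5% against the 55.3% of all tested genes, with a median log2 fold change of 0.26 (-0.17 with the correction). Without vehicle library 1, or without any 1 of the treated libraries, 7 rose. TFRC, the transferrin receptor gene, rose from 96.1 ± 11.5 to 301 ± 31.2 CPM (a log2 fold change of 1.65 with SE 0.134; 0.84 with the correction), and GBE1, the glycogen branching enzyme gene, from 18.5 ± 9.33 to 54.8 ± 6.56 CPM (1.57, SE 0.344; 1.06 with the correction). HILPDA, which encodes a lipid droplet protein induced in hypoxia, went from 5.40, 8.64 and 5.63 CPM to 0.499, 0.707 and 0.905 CPM. No treated library came near the vehicle range, and HILPDA fell 9.26-fold (a log2 fold change of -3.21 with SE 0.310, edgeR adjusted p = 1.77e-04).

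RAB20, a small GTPase gene, fell from 14 ± 1.77 to 2.14 ± 0.163 CPM (a log2 fold change of -2.71 with SE 0.176, edgeR adjusted p = 4.67e-05). Other falls, named after their values were seen, were those of MIR210HG, the host transcript of the hypoxia-induced microRNA miR-210, from 4.90 ± 0.912 to 0.286 ± 0.146 CPM (a log2 fold change of -4.11), of BHLHE40, a transcriptional repressor gene, from 69.2 ± 16.1 to 18.5 ± 2.13 CPM (-1.90), and of DDIT4, an inhibitor of mTORC1 signalling, from 39.7 ± 3.14 to 22.3 ± 2.44 CPM (-0.83; -0.34 with the correction, edgeR adjusted p = 0.0619). Of the 11 rises, 3 turned sign with the correction and were singled out for that: BNIP3L, a mitophagy receptor gene (0.43, and called lower at -0.31 with the correction), ERO1A, an oxidase of the endoplasmic reticulum (0.65 and -0.22), and LOX, which crosslinks collagen (0.67 and -0.17). All 3 calls were lost without vehicle library 1 or any 1 treated library and with library totals, and that of BNIP3L also without vehicle library 2 or with no count filter (edgeR adjusted p = 0.0641 or above). HIF targets on this list thus included both the large rises of GBE1 and TFRC and the larger falls of HILPDA and RAB20 in the same libraries.

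**Figure D5:**
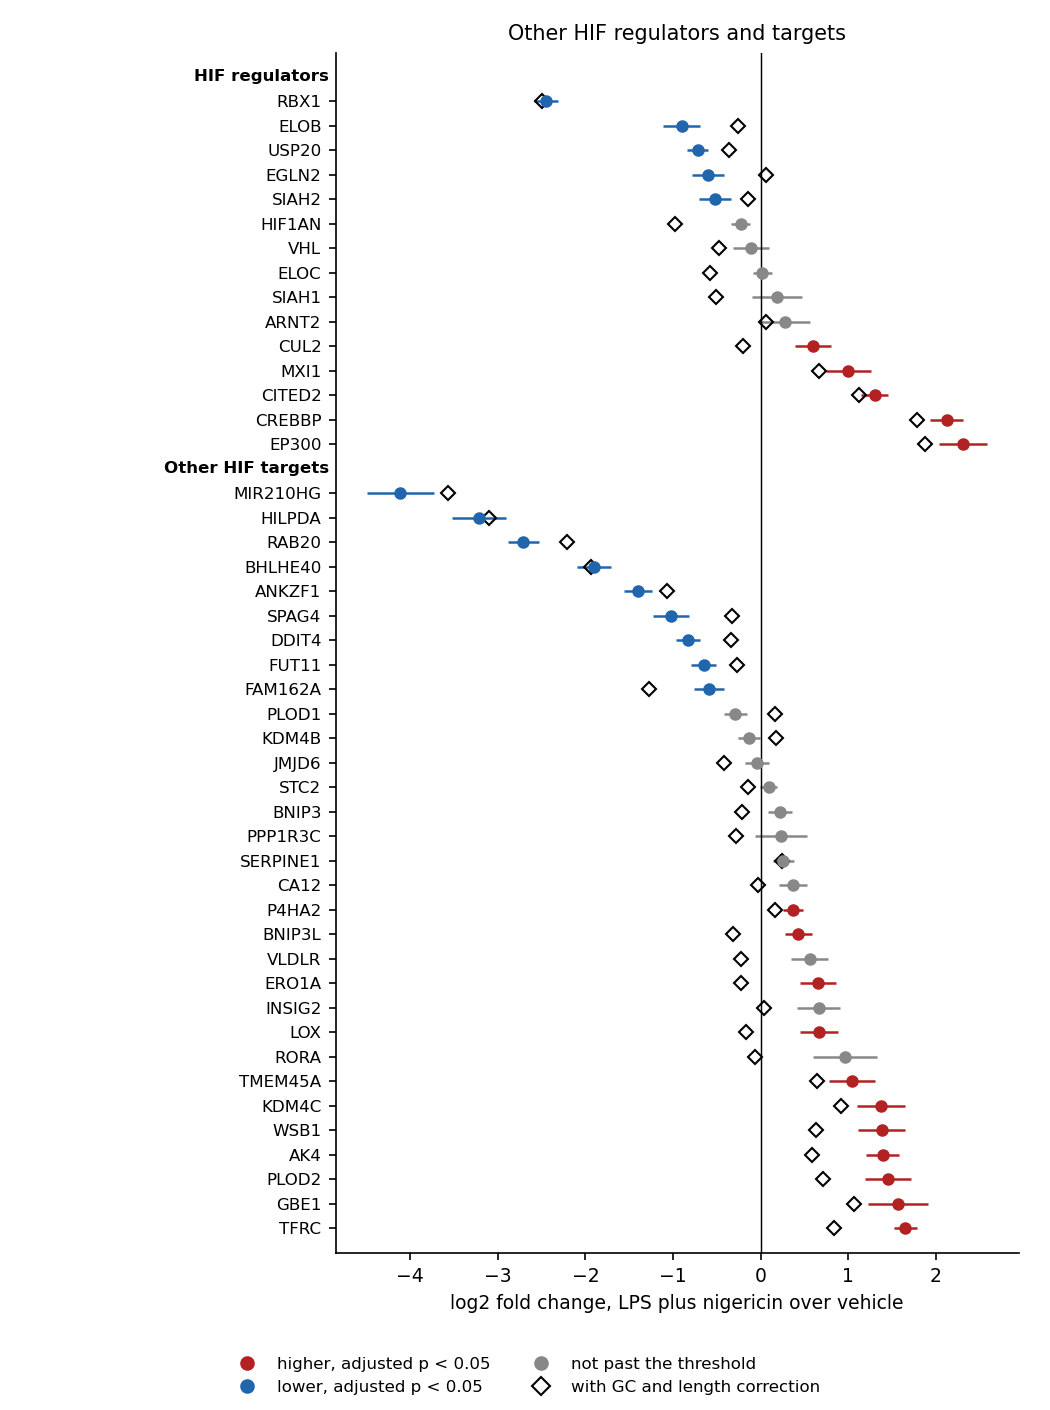
Log2 fold change of LPS plus nigericin over vehicle (x axis) for the tested genes of the 2 wider lists, 15 HIF regulators and 31 other HIF targets, ordered by value, with bars for the standard error and open diamonds for the GC and length corrected value. The targets run from MIR210HG at -4.11 to TFRC at 1.65, and RBX1 at -2.45 stands apart at the low end of the regulators.

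Of 19 tested genes on a list of 29 other glycolytic, pyruvate and pentose phosphate genes, 3 rose, 10 fell and 6 did not pass, a called share of 68.4% against 55.3% of all tested genes (28.9% higher and 26.4% lower). Leaving out vehicle library 1 gave 6 falls. BPGM, bisphosphoglycerate mutase, rose from 4.90 ± 1.04 to 9.37 ± 0.169 CPM (a log2 fold change of 0.93; 0.54 with the correction), and PGM2, a phosphopentomutase gene, by 0.89 (0.24 with the correction, edgeR adjusted p = 0.0940). LDHC, the testis lactate dehydrogenase gene, had 0, 0 and 4 counts in the vehicle libraries and 56, 44 and 38 in the treated libraries. The largest falls were those of ENO3, the muscle enolase gene, from 19.6 ± 3.70 to 7.70 ± 0.867 CPM (a log2 fold change of -1.35 with SE 0.183; -0.89 with the correction), and of PDK2, another pyruvate dehydrogenase kinase gene, from 31.8 ± 3.56 to 12.8 ± 1.48 CPM (-1.31, SE 0.152; -0.87 with the correction).

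Whether counting used strand is not stated in the labels, and 18 of the 38 genes overlap the exons of another gene in GENCODE by at least 50 bases, among them ALDOA, LDHB, GPI, PFKM, SLC16A3 and ANKRD37, so reads of that gene may be counted in them. Pseudogenes named after these genes took few counts, the most in absolute terms for GAPDH, whose 31 listed pseudogenes held 0.279% of the GAPDH count.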

How the data were processed

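RNA-seq of 3 vehicle and 3 LPS plus nigericin libraries was analysed from raw counts per Ensembl gene, which the authors deposited as 1 table. The submitters' processing notes name hg38. The aligner, like the counter, annotation release and strand setting, is not given in the sources used here. Columns were assigned by library name.

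Genes were matched to symbols (37840 of 37871), filtered with filterByExpr, normalized with TMM factors and tested with edgeR 4.0.16 (R 4.3.3, limma 3.58.1, robust quasi-likelihood F test, group only, Benjamini-Hochberg over 19170 genes). SE is the absolute log2 fold change over the square root of F. The common biological coefficient of variation was 0.268, and replicates differed by 22.6 to 187 in chi-square per degree of freedom, so none was a repeat deposit. Coordinates, exon length and GC content of the APPRIS principal transcript came from GENCODE 29 (97.1% of tested genes). The GC and length correction used per-library loess offsets (span 0.3). Promoters came from RefSeq (GRCh38.p14). The main edgeR fit and DESeq2 were tried on simulated counts, and the other steps were not. Python 3.11.15 drew the figures.

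The 38 genes, the wider lists and the tests were chosen with earlier results of these data known. Every member of the 38 could be named. From each wider list the rule named the 2 largest rises and falls among called genes whose higher group averaged at least 5 CPM, and the members of counts of 5 or fewer. VHL, MIR210HG, BHLHE40, DDIT4, BNIP3L, ERO1A, LOX, PGD, TKT and TALDO1 were singled out once their values were known. A gene of the wider lists is not reported here.

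Alternatives were RLE factors, library totals, DESeq2 1.42.0, limma-voom, no filter, a filter of 1 CPM in 3 libraries, a replicate block, glmTreat against a 2-fold change, the GC and length correction, and leaving out each library. For shares they were unscaled counts, corrected values and, added after seeing the annotation, principal transcript length.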

Additional observations from a re-analysis of the deposited data

How the results depend on the processing

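The counts of 14 rises and 9 falls among the 37 tested genes stayed within 1.5 times under RLE factors, library totals (11 and 13), DESeq2, limma-voom, no filter, the stricter filter and the replicate block. Against a 2-fold change (glmTreat) 5 rose and 0 fell, and with the GC and length correction 4 fell. Leaving out 1 library at a time gave 11 to 15 rises and 4 to 12 falls, the lowest number of falls without treated library 1. SLC2A3, SLC16A1, HIF1A, ADM and P4HA1 were called higher in all 15 alternatives. With GPI, LDHB, EPAS1 and KDM3A, called in all but glmTreat, these make 9 of the 23 called genes. In the wider lists glmTreat left 1 rise and 0 falls among other glycolytic genes, 2 and 1 among HIF regulators and 1 and 5 among other HIF targets. Leaving out 1 library gave 6 to 9 falls of other glycolytic genes, 3 to 6 rises and 3 to 5 falls of HIF regulators, and 7 to 14 rises of other HIF targets.

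With the correction the sign turned for 10 of the 37 genes and for 19 of 65 on the wider lists, 7 of them called without it. Those named here are PFKL (0.08), PFKP (0.13), ALDOA (0.15), PGK1 (-0.26), ENO1 (0.13), ENO2 (0.15), PDK1 (-0.02), EGLN1 (-0.40), NDRG1 (0.23), ANKRD37 (0.26), CUL2 (-0.20), EGLN2 (0.06), TKT (0.07), TALDO1 (0.02), BNIP3L (-0.31), ERO1A (-0.22) and LOX (-0.17). It also turned for the PFKM share (-1.58 percentage points against 0.782). The cause was not tested. Without 1 library the sign turned for ENO2 (-0.18 to 0.01, above 0 without vehicle 2), ANKRD37 (-0.46 to 0.20, above 0 without vehicle 3 or, at 0.14, treated 1) and VHL (-0.31 to 0.05, above 0 without vehicle 3). All other shares kept their direction under each alternative.

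With the replicate number of the labels as a block, 14 of the 37 rose and 11 fell. Same-numbered libraries did not deviate together (correlations -0.023, 0.096 and -0.024, against -0.101 to 0.122 between libraries of different numbers). These values show no pairing by number, but with 3 libraries per group they cannot exclude it. Depth limits CA9, EGLN3 and LDHC.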

Other observations

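PGD, TKT and TALDO1, genes of the pentose phosphate branch on the wider list, all fell. This branch supplies NADPH and ribose. They were singled out after their values were seen, and 26.4% of all tested genes fell. PGD, phosphogluconate dehydrogenase, fell from 262 ± 32.6 to 186 ± 9.73 CPM (a log2 fold change of -0.49, edgeR adjusted p = 0.0103; -0.29 with the GC and length correction). TKT, transketolase, and TALDO1, transaldolase, fell by 0.35 and 0.42 on the log2 scale and were at 0.07 and 0.02 with the correction. The TKT call was lost without vehicle library 1 or 2 or any treated library, and that of TALDO1 without vehicle library 1 or treated library 1 or 3 (edgeR adjusted p = 0.0536 or above).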
